A study of Mus musculus with 16 samples.

Results

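The genes described here are 7 markers of cholangiocytes, the epithelial cells of the bile ducts, and of liver progenitor cells: Spp1, Krt19, Krt7, Epcam, Sox9, Cftr and Prom1. They were chosen by gene symbol from a count table of 55421 genes, and each symbol matched 1 gene. The table came from poly(A) RNA-seq of whole liver in 4 groups of 4 libraries each, taken from male C57BL/6 mice in which the histone chaperone gene Hira had been disrupted in hepatocytes, and from controls, before and after partial hepatectomy. The comparisons ask whether loss of HIRA, which deposits the histone variant H3.3, and regeneration changed the level of these markers.

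In HIRA KO mice, Hira was disrupted in either of 2 ways: AAV8-Tbg-Cre given to HIRA fl/fl animals, or AAV8 carrying Tbg-saCas9 with U6-sgRNA-HIRA given to wildtype animals. Control mice were wildtype animals that received AAV8-Tbg-Cre, or wildtype animals that received the saCas9 vector with a guide against Rosa26, so every group carried an AAV8 vector and each group held 2 animals of each approach. The Tbg promoter is active in hepatocytes, so a change in Hira was directed at hepatocytes and not at the bile duct cells that normally hold most of these markers. Vectors were given at 6 months of age. The libraries named before were made from the left lateral and median lobes resected 4 weeks after injection, and those named after from the liver that remained 5 days after resection, so time since surgery, lobe and manner of collection cannot be told apart. Libraries are named by group and column number (HIRA KO before 1), and whether a number marks a mouse or the approach is not given in the sources used here. Resected mice were kept until the second collection, so libraries from before and after may share animals, and the fits, which have no pairing, do not use this.

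Total counts ran from 15103059 to 21738619 reads per library. Hira itself was at 5.77 ± 0.448 reads per 1000000 reads (CPM; mean ± SD, n = 4) in control before and 3.54 ± 0.571 in HIRA KO before, and at 5.67 ± 0.554 and 3.51 ± 0.707 after, with every HIRA KO library below every control library (exact two-sided permutation test, p = 0.0286 at both times, the smallest p that 4 against 4 allows; edgeR adjusted p = 0.129 and 0.0666). On the second principal component of 13176 genes, which held 26.5% of the variance, 4 HIRA KO libraries stood apart: HIRA KO before 1 and 2 at -47.4 and -36.6 and HIRA KO after 1 and 2 at -40.2 and -36.2, against -1.14 to 31.2 in the other 12. Values that moved most without these libraries, or without HIRA KO before 1 alone, are also given without them. The 4 libraries are all HIRA KO and were picked for standing apart in these same data. A smaller difference between genotypes without them could follow from that choice alone, so these values are descriptions. That fit keeps HIRA KO before 3 and 4, HIRA KO after 3 and 4 and all control libraries. As these are bulk libraries, fewer cells of a type and less RNA per cell cannot be told apart.

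Cholangiocytes line the bile ducts and modify bile by moving chloride, bicarbonate and water. They share an origin with hepatocytes in the bipotent hepatoblast, from which Notch signalling and the transcription factor SOX9 lead cells to a ductal fate. In injured liver, ductular cells that carry these markers can expand, and hepatocytes can take up some of them, Spp1 and Sox9 among them, so a marker's level in whole liver need not follow the number of duct cells.

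The 7 genes differed widely in level. By the deposited FPKM, which is scaled to gene length and so allows genes to be compared, Spp1 averaged 41.7 over the 16 libraries, Krt19 3.25, Prom1 2.63, Sox9 2.29, Epcam 1.46, Krt7 0.779 and Cftr 0.0244. Spp1 was thus the most abundant, and the average of Krt19 was raised by 1 library, in which it stood at 32.6 FPKM. In that same library Spp1 was at 38.4 FPKM. Over the libraries, the ranges of Krt19, Prom1, Sox9, Epcam and Krt7 overlapped.

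In the GENCODE M21 annotation of GRCm38, whose versioned gene identifiers match most of those in the table, Spp1 (ENSMUSG00000029304.14) lies at chr5:104435118-104441050 on the plus strand, Krt19 (ENSMUSG00000020911.14) at chr11:100140810-100148665 on the minus strand, and Krt7 (ENSMUSG00000023039.17) at chr15:101411043-101430313 on the plus strand. Epcam (ENSMUSG00000045394.9) lies at chr17:87635979-87651129 (plus), Sox9 (ENSMUSG00000000567.5) at chr11:112782224-112787760 (plus), Cftr (ENSMUSG00000041301.15) at chr6:18170687-18322768 (plus) and Prom1 (ENSMUSG00000029086.15) at chr5:43993620-44102032 (minus). The values are exonic read counts of whole genes. Spp1, Krt7, Cftr and Prom1 each overlap exons of another annotated transcript, and how reads there were assigned is not given in the sources used here. The overlapping genes had at most 5 reads in any library. These counts do not show reads that may have been left out because genes share them, so the effect on the members is not known.

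Upstream sequences are shown for Spp1, the one member whose level passed the test between 2 groups, and for Epcam, which was raised in a single library together with Krt19 and Krt7. Each is the 250 bases before the RefSeq transcription start in GRCm38.p6, written 5′ to 3′ on the gene's own strand (Spp1, chr5:104434861-104435110, plus; Epcam, chr17:87635729-87635978, plus), and neither window touches an annotated exon. Capitals mark matches, on either strand, to 6 short motifs searched: ACAAT (SOX factors), TGGGAA (RBPJ, the Notch effector), GGAATG (TEAD, the partner of YAP), TGANTCA (AP-1), AGGAAG (ETS factors such as EHF and ELF3) and GGGCGG (the GC box of SP and KLF factors).
Spp1: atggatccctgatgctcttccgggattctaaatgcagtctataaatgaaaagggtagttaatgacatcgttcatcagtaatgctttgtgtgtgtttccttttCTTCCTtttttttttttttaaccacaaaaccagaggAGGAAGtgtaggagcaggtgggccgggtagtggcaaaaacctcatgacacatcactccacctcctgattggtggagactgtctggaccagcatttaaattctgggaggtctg
Epcam: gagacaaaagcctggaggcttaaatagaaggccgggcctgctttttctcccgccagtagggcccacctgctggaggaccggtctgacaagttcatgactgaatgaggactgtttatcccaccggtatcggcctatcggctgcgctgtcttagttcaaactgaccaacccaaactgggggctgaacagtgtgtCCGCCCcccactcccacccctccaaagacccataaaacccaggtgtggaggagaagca
The Spp1 window held 2 ETS matches, and the Epcam window held 1 GC box and no other match. Over 32851 windows of the same length in the RefSeq table, 29.5% held AGGAAG and 32.7% GGGCGG, so these matches are common letters and are given as a description. Cftr, which also has a window clear of exons, held 6 GC boxes, some overlapping each other, and 2 ETS matches. A second Prom1 start has a window clear of exons with 4 ETS matches and 1 AP-1 match. The windows of Krt7, of the upstream Prom1 start and of a second Spp1 start, which lies in exons of Gm42793, overlap annotated exons and are not printed, and Krt19 and Sox9 have no entry in the table.

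Across the main comparisons, made with edgeR's quasi-likelihood test and p-values adjusted by Benjamini-Hochberg over 23018 genes, 1 member passed an adjusted p of 0.05 in 1 comparison: Spp1 rose after resection in control mice. Between HIRA KO and control before resection, 0 of 7 members were called, where 0.0391% of all genes were. At an unadjusted p under 0.05 there were 4 (Krt19, Krt7, Epcam and Cftr) against 13.2% of all genes, and DESeq2 called 1, Krt19, against 1.64%. Between HIRA KO and control after resection, 0 of 7 were called by edgeR, against 0.491% of all genes, 0 at an unadjusted p under 0.05, against 15.8%, and 0 by DESeq2, against 3.98%.

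In control mice, 1 of 7 members was called from before to after resection, against 10.2% of all genes, and Spp1 was also the only member at an unadjusted p under 0.05, against 23.5%, and the only one called by DESeq2, against 14.3%. In HIRA KO mice 0 of 7 were called, against 12.0% of all genes; 3 (Spp1, Krt19 and Epcam) had an unadjusted p under 0.05, against 27.4%, and DESeq2 called Krt19, against 16.0%. A difference in the effect of HIRA KO between the 2 times was called for 0 of 7 members, where edgeR called 0 of all genes, 6.81% had an unadjusted p under 0.05 (0 members) and DESeq2 called 0.293% (0 members). In none of the 4 comparisons was any member free of overlap between its groups, while 8.07% and 8.10% of all genes were free of overlap between HIRA KO and control before and after, and 19.0% and 16.1% between after and before in control and HIRA KO mice. When the 4 groups were put in order of mean level, each pair of neighbours overlapped for every member.

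**Figure D1:**
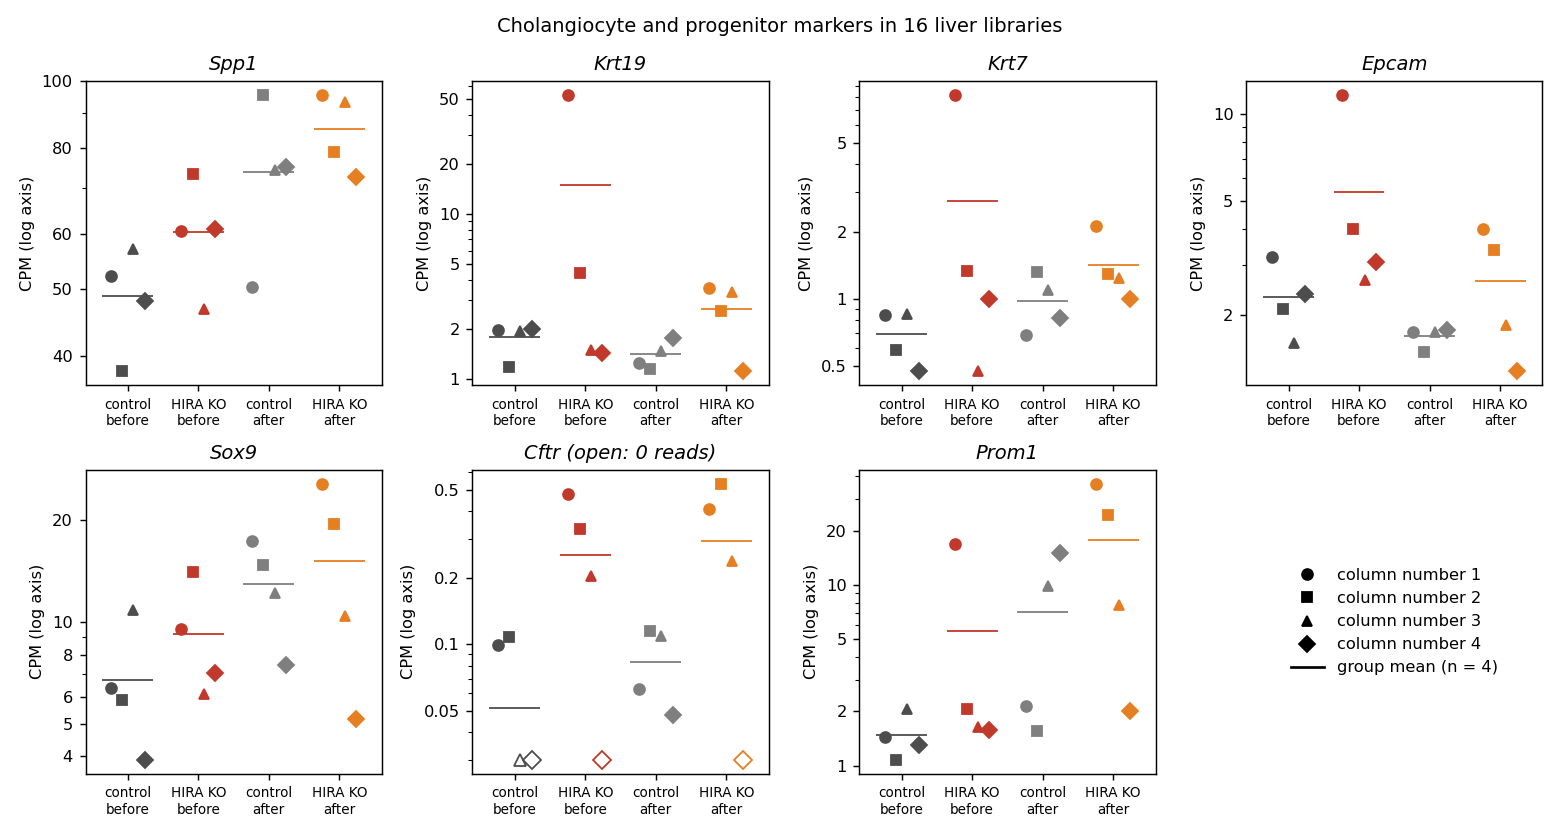
CPM of the 7 markers in each of 16 libraries, 1 panel per gene with a log axis of its own; symbols give the column number, lines the mean of 4 libraries, and open symbols 0 reads. HIRA KO before 1 (red circle) was highest for Krt19, Krt7 and Epcam at 52.7, 8.20 and 11.6 CPM, while Spp1 drifted upward from control before to HIRA KO after with every group overlapping the next.

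Spp1 encodes osteopontin, a secreted glycoprotein that binds integrins and CD44 and is made by bile duct cells, some macrophages and stressed hepatocytes. In control before it stood at 52.1, 38.0, 57.1 and 48.0 CPM in libraries 1 to 4, in HIRA KO before at 60.7, 73.3, 46.8 and 61.1, in control after at 50.4, 95.5, 74.3 and 75.1, and in HIRA KO after at 95.6, 79.0, 93.5 and 72.6. Of the control libraries after resection, 3 were above all 4 from before and the fourth, control after 1, fell among them. Spp1 rose 1.51-fold from before to after in control mice (log2 fold change 0.60, SE 0.178, edgeR adjusted p = 0.0395), from a mean of 48.8 ± 8.13 to 73.8 ± 18.5 CPM (n = 4 each).

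In HIRA KO mice the log2 fold change of Spp1 from before to after was 0.49 (SE 0.178, edgeR adjusted p = 0.0776), with means of 60.5 ± 10.8 and 85.2 ± 11.2 CPM, and the groups overlapped by the narrow margin of 72.6 against 73.3. The difference between the 2 changes was -0.10 on the log2 scale (SE 0.251, edgeR adjusted p = 0.967). Against control, HIRA KO livers differed by 0.31 before (SE 0.178, adjusted p = 0.475) and 0.21 after (SE 0.177, adjusted p = 0.617), and the ranges overlapped at both times. The call in control mice was marginal: leaving out 1 library at a time, it was lost without control before 1, 2 or 4 (edgeR adjusted p = 0.0679, 0.126 and 0.0973) or without control after 2, 3 or 4 (0.137, 0.0819 and 0.108), and kept without control before 3 (0.0382) or control after 1 (0.00761), with log2 fold changes of 0.45 to 0.75. The exact two-sided permutation test of log2(CPM + 1), 4 against 4, gave p = 0.0857. All 7 markers of Kupffer cells, the resident macrophages of the liver, were called higher after resection in both genotypes, against 6.04% of all genes in control and 6.48% in HIRA KO mice. Their summed level was 104 to 296 CPM in control before and 611 to 769 in control after, and their part in the rise of Spp1 was not tested.

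Krt19 encodes keratin 19, an intermediate filament protein of simple ductal epithelia and the most used marker of bile ducts. It stood at 1.99, 1.18, 1.95 and 2.01 CPM in control before, at 52.7, 4.40, 1.50 and 1.44 in HIRA KO before, at 1.25, 1.15, 1.47 and 1.78 in control after, and at 3.53, 2.58, 3.37 and 1.11 in HIRA KO after. A single library, HIRA KO before 1, held 996 reads of Krt19, where the other 15 held 20 to 78. HIRA KO before 2 was above every control library from before, while HIRA KO before 3 and 4 lay within the control range.

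The log2 fold change of Krt19 between HIRA KO and control before was 3.08 (SE 0.994, edgeR adjusted p = 0.246), and without HIRA KO before 1 it was 0.46 (adjusted p = 0.841). Without the 4 libraries low on the second component it turned to -0.28 (adjusted p = 0.940). DESeq2 called this difference at an adjusted p of 0.0310, with a log2 fold change of 3.09. After resection, 3 of 4 HIRA KO libraries were above all control libraries and HIRA KO after 4 was below them all, with a log2 fold change of 0.90 (SE 1.00, edgeR adjusted p = 0.718).

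From before to after, Krt19 changed by -0.33 on the log2 scale in control mice (SE 1.03, edgeR adjusted p = 0.902) and by -2.50 in HIRA KO mice (SE 0.954, adjusted p = 0.110). The second value also turned on HIRA KO before 1, since it was 0.13 without that library (adjusted p = 0.870). DESeq2 called the change in HIRA KO mice, with a log2 fold change of -2.50 and an adjusted p of 0.0280.

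Krt7 encodes keratin 7, the partner of keratin 19 in the ductal cytoskeleton. It stood at 0.845, 0.592, 0.859 and 0.474 CPM in control before, at 8.20, 1.33, 0.476 and 1.00 in HIRA KO before, at 0.689, 1.32, 1.09 and 0.816 in control after, and at 2.13, 1.29, 1.23 and 1.00 in HIRA KO after. HIRA KO before 1 held 155 reads, and the other 15 libraries held 7 to 47, so a level near 1 CPM rests on about 20 reads and carries a wide counting error. HIRA KO before 3 fell to the lowest control library, and the other 3 HIRA KO libraries from before lay above all 4 controls.

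For Krt7 the log2 fold change between HIRA KO and control before was 2.00 (SE 0.664, edgeR adjusted p = 0.246), and without HIRA KO before 1 it was 0.43 (adjusted p = 0.843). After resection it was 0.53 (SE 0.650, adjusted p = 0.747), and 0.22 without the 4 libraries low on the second component (adjusted p = 0.893). Regeneration changed Krt7 by 0.49 in control mice (SE 0.686, adjusted p = 0.745) and by -0.97 in HIRA KO mice (SE 0.622, adjusted p = 0.342). The last of these turned to 0.60 without HIRA KO before 1 (adjusted p = 0.324).

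Epcam encodes an adhesion molecule of epithelial cells that marks bile duct cells and hepatic progenitors and is absent from mature hepatocytes. It stood at 3.18, 2.10, 1.60 and 2.37 CPM in control before, at 11.6, 4.00, 2.65 and 3.07 in HIRA KO before, at 1.75, 1.49, 1.74 and 1.78 in control after, and at 3.99, 3.38, 1.85 and 1.28 in HIRA KO after. Among HIRA KO libraries from before, 1 and 2 lay above all controls, and 3 and 4 were below the highest control. After resection HIRA KO 1, 2 and 3 lay above all controls and HIRA KO 4 below them all.

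The log2 fold change of Epcam between HIRA KO and control was 1.21 before (SE 0.431, edgeR adjusted p = 0.267) and 0.64 after (SE 0.442, adjusted p = 0.523). The value before was 0.49 without HIRA KO before 1 (adjusted p = 0.769), and without the 4 libraries low on the second component the values were 0.30 before and -0.08 after. Epcam changed from before to after by -0.45 in control mice (SE 0.446, adjusted p = 0.613) and by -1.03 in HIRA KO mice (SE 0.425, adjusted p = 0.130). The value in HIRA KO mice was -0.29 without HIRA KO before 1 (adjusted p = 0.618).

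Prom1 encodes prominin 1 (CD133), a membrane protein of apical protrusions used to isolate progenitor-like cells. It stood at 1.44, 1.08, 2.06 and 1.30 CPM in control before, at 16.9, 2.07, 1.63 and 1.57 in HIRA KO before, at 2.13, 1.55, 9.87 and 15.0 in control after, and at 36.5, 24.6, 7.78 and 2.00 in HIRA KO after. Its libraries fell into low ones at 1.08 to 2.13 CPM and high ones at 7.78 to 36.5 CPM: 1 of 8 from before was high, HIRA KO before 1, and so were 2 of 4 control and 3 of 4 HIRA KO libraries from after. Unlike Krt19, Krt7 and Epcam, Prom1 had its highest value outside HIRA KO before 1, in HIRA KO after 1.

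Prom1 changed with regeneration by 2.29 on the log2 scale in control mice (SE 1.09, edgeR adjusted p = 0.229) and by 1.65 in HIRA KO mice (SE 0.991, adjusted p = 0.316). The value in HIRA KO mice was 3.34 without HIRA KO before 1 (adjusted p = 0.0551). Between HIRA KO and control the log2 fold change was 1.94 before (SE 1.10, adjusted p = 0.478), 0.26 without HIRA KO before 1 (adjusted p = 0.981), and 1.30 after (SE 0.975, adjusted p = 0.564). Without the 4 libraries low on the second component the value after turned to -0.52 (adjusted p = 0.893).

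Sox9 encodes the transcription factor that marks the ductal plate and adult ducts and that periportal hepatocytes also express at a low level. It stood at 6.37, 5.86, 10.8 and 3.91 CPM in control before, at 9.53, 14.0, 6.12 and 7.08 in HIRA KO before, at 17.3, 14.7, 12.2 and 7.44 in control after, and at 25.6, 19.5, 10.4 and 5.18 in HIRA KO after. In control mice 3 of 4 libraries from after were above all 4 from before. The HIRA KO libraries from after were the most spread, from 5.18 to 25.6 CPM, with the libraries 1 and 2 that stood apart on the second component at the top.

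Sox9 changed from before to after by 0.93 on the log2 scale in control mice (SE 0.460, edgeR adjusted p = 0.243) and by 0.73 in HIRA KO mice (SE 0.454, adjusted p = 0.336). HIRA KO and control differed by 0.45 before (SE 0.463, adjusted p = 0.729) and by 0.24 after (SE 0.448, adjusted p = 0.848). Without the 4 libraries low on the second component these turned to -0.03 and -0.69 (adjusted p = 0.998 and 0.618), and the change with regeneration in HIRA KO mice was 0.26 (adjusted p = 0.797). HIRA KO before 1, so high for the keratins, held 9.53 CPM of Sox9, below 8 of the other 15 libraries.

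Cftr encodes the chloride channel of the apical membrane of cholangiocytes, and it was near the limit of detection. Control before held 2, 2, 0 and 0 reads, HIRA KO before 9, 5, 3 and 0, control after 1, 2, 2 and 1, and HIRA KO after 9, 12, 5 and 0. A library with 0 reads allows a level of up to 0.167 to 0.188 CPM (3 reads), and at 12 reads, the highest count, the level was 0.533 CPM with an exact Poisson 95% interval of 0.275 to 0.931, which covers counting error only. Both HIRA KO groups held libraries above all controls and 1 at 0 reads, edgeR gave adjusted p = 0.374 before and 0.346 after, and no fold is given at this depth.

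**Figure D2:**
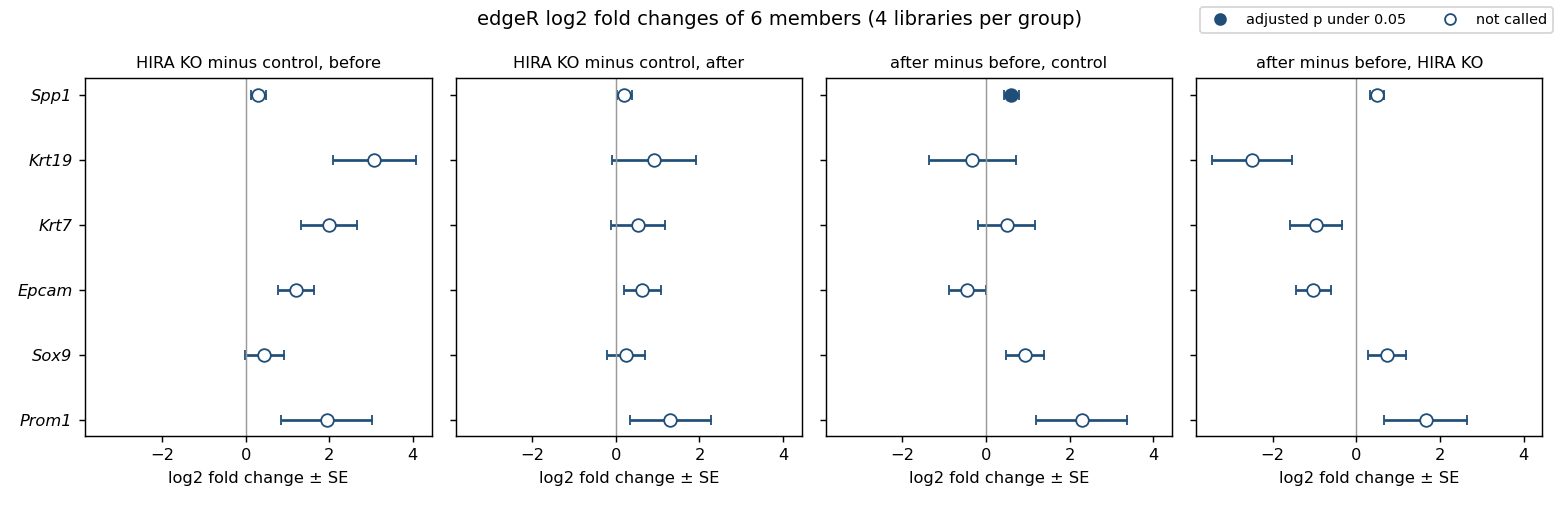
edgeR log2 fold change ± SE of 6 markers in the 4 comparisons of 4 libraries against 4 (horizontal axis, shared by the panels); filled points passed an adjusted p of 0.05. Only Spp1 from before to after in control mice, at 0.60, is filled, and the widest bars are those of Krt19 and Prom1.

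Taken as a list, the 7 members had a median log2 fold change of 1.94 between HIRA KO and control before resection, where the median over all genes tested was 0.01. This median was 0.43 without HIRA KO before 1 and 0.12 without the 4 libraries low on the second component. After resection it was 0.64, against 0.02 for all genes, and 0.19 without those 4 libraries. From before to after it was 0.56 in control mice and 0.22 in HIRA KO mice (0.60 without HIRA KO before 1), against 0.00 and 0.02 for all genes. Cftr, with its few reads, is counted in these medians.

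HIRA KO before 1 was the highest of the 16 libraries for 3 of 7 members, Krt19, Krt7 and Epcam, and for 9.70% of all genes tested. Krt19 was there 21.5 times the mean of the other 3 libraries of its group, Prom1 9.65 times, Krt7 8.75 times and Epcam 3.59 times. Spp1 and Sox9 were at 1.01 and 1.05 times that mean. The exact Poisson 95% interval of Krt19 in this library ran from 49.5 to 56.1 CPM, and that of Krt7 from 6.96 to 9.60, so counting error was small beside the gap to the other libraries.

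Transcription factors of the ductal lineage moved with the keratins in this library. Of 8 biliary transcription factors, 5 (Onecut2, Ehf, Elf3, Grhl2 and Klf5) were highest in HIRA KO before 1. The genes singled out here for this library were chosen after their values were seen. Klf5, a factor of proliferating epithelia, was at 10.2 CPM there and at most 0.734 in the other 15 libraries, and Ehf, an epithelial ETS factor, at 9.05 against at most 1.87. Elf3, another, stood at 11.0 CPM, but reached 10.6 elsewhere.

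Of 10 biliary keratin, junction and surface genes, 5 (Cdh1, Cldn7, Muc1, Cd24a and St14) were highest in HIRA KO before 1. Muc1, a membrane mucin of duct and gland epithelium, was at 47.0 CPM there and at most 2.26 elsewhere, and Cd24a, a surface glycoprotein of ductal and progenitor cells, at 70.1 against at most 13.8. Krt8 and Krt18, the keratins that hepatocytes share with ducts, were not raised in it, at 1.06 and 1.09 times the mean of the rest of its group. Markers of other cell types moved with the keratins as well, though not every gene of each list did. Of 10 stellate cell and matrix genes 6 were highest in this library, among them Acta2, smooth muscle actin, at 79.1 CPM against at most 12.7, and so were 4 of 6 mesothelial genes and 5 of 8 tested genes of gallbladder and intestinal epithelium, among them Olfm4, an intestinal crypt marker, at 24.4 CPM against at most 0.0995. Other genes of that last list did not follow Olfm4. Fabp2, its most abundant gene, was at 42.7 CPM there, 0.69 times the mean of the rest of its group. Tff3 was higher in 4 other libraries. The list summed to 116 CPM in HIRA KO before 1, below the 129 CPM of control after 4. Ctrb1, a pancreatic acinar enzyme, was at 12.6 CPM against at most 0.0545. Of the other acinar genes, Cela1 was at 12.0 CPM, 1.18 times the mean of the rest of its group. Cel was at 0.0529 CPM and Prss2, Cpa1 and Pnlip at 0, so these did not follow Ctrb1. None of 7 Kupffer cell, 7 endothelial or 4 proliferation genes was highest there. Whether HIRA KO before 1 held other tissue, and any part of it in the marker levels there, was not tested.

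**Figure D3:**
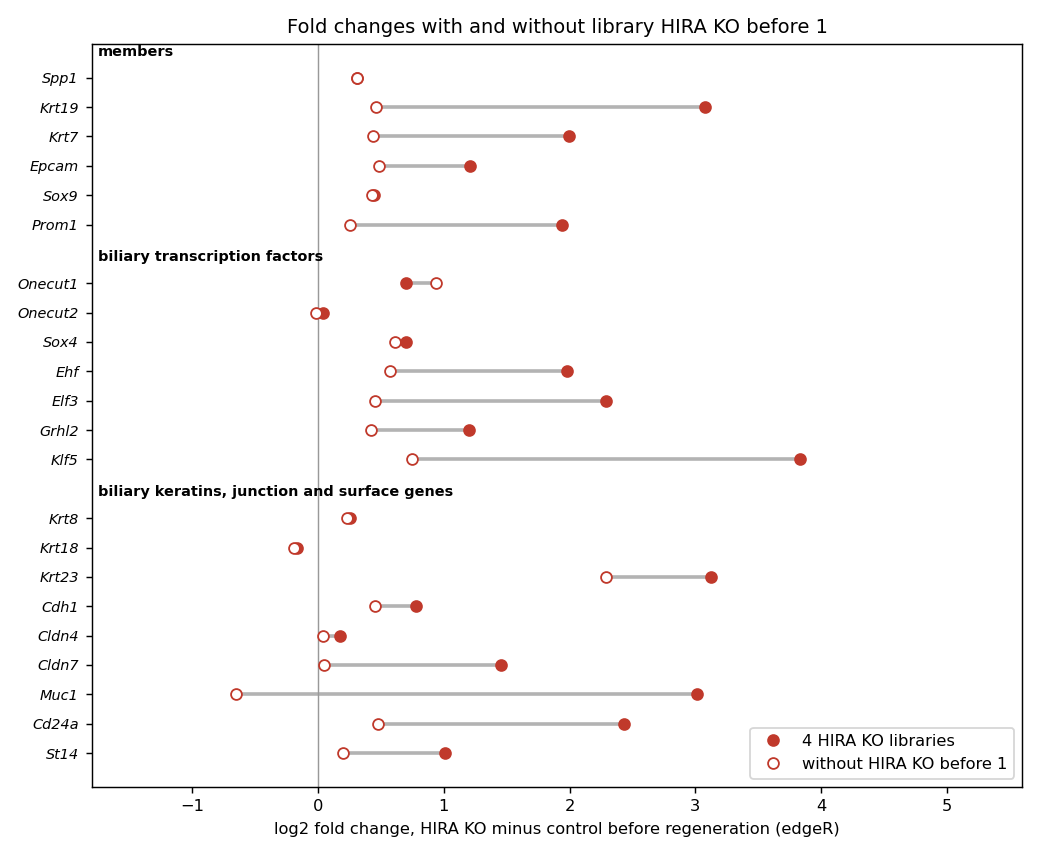
edgeR log2 fold change between HIRA KO and control before resection (horizontal axis) for 6 markers and 16 genes of 2 biliary lists with reads in both groups; filled points use all 4 HIRA KO libraries and open points leave out HIRA KO before 1. The points of Krt19, Krt7, Epcam and Prom1 move from 1.21 to 3.08 down to 0.26 to 0.49, and those of Spp1 and Sox9 hardly move.

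Between genotypes edgeR called 0.0391% of all genes before and 0.491% after, so a short list without a call is not a result about its genes. These shares apply to the wider lists of biliary genes and to each list below. Of the 8 transcription factors none was called in any comparison by edgeR; their median log2 fold change between HIRA KO and control was 0.95 before, 0.51 without HIRA KO before 1, and 0.15 after, and without the 4 libraries low on the second component 0.06 before and -0.12 after. Of the 10 keratin, junction and surface genes, none was called between genotypes, with a median of 0.90 before, 0.12 without HIRA KO before 1, and 0.88 after; without the same 4 libraries these were -0.01 before and 0.02 after. With genes that had no reads in a group at their counting bound or left out, the median before was 1.01. Krt23, a keratin of ductular reactions singled out after its values were seen, was at 1.25 ± 0.52 CPM in control before and 10.8 ± 10.1 in HIRA KO before, and at 1.08 ± 0.63 and 13.4 ± 10.7 after. Its HIRA KO libraries lay above all control libraries at both times, with log2 fold changes of 3.12 and 3.60, neither of them called (edgeR adjusted p = 0.150 and 0.0576). Without those 4 libraries they were 1.53 and 2.65, and the one after was then called (adjusted p = 0.419 and 0.0243).

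Krt8 and Krt18 were the 2 genes of that list called higher with regeneration, where 6.04% of all genes were in control mice and 6.48% in HIRA KO mice. Krt8 went from 163 ± 18 to 337 ± 53 CPM in control mice, a log2 fold change of 1.05 (SE 0.186, edgeR adjusted p = 0.00201), and by 1.20 in HIRA KO mice (SE 0.186, adjusted p = 0.000733). Krt18 rose by 1.08 (SE 0.231, adjusted p = 0.00631) and 1.76 (SE 0.235, adjusted p = 0.000272). Krt19 and Krt7, the duct keratins, did not pass the edgeR test in either genotype.

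Among 11 genes of biliary transport, secretion and cilium, 1 was called between genotypes at each time, against 0.0391% of all genes before and 0.491% after. Slc10a2, the apical bile acid transporter of ducts and ileum, was higher in HIRA KO before, at 95.4 ± 13.7 against 41.3 ± 10.3 CPM, with every HIRA KO library above every control one (log2 fold change 1.21, SE 0.205, edgeR adjusted p = 0.0477). Without HIRA KO before 1 the fold change was 1.19, with an adjusted p of 0.176. Ggt1, a glutathione-cleaving enzyme of duct cells and fetal hepatocytes, was higher in HIRA KO after, at 1.59 ± 1.22 against 0.179 ± 0.085 CPM (log2 fold change 3.11, SE 0.581, adjusted p = 0.0383), from 10 to 73 reads against 1 to 4, and without the 4 libraries low on the second component its log2 fold change was 2.01 (adjusted p = 0.200). The list's median was 0.43 before and -0.12 after, and 0.22 and -0.14 without those 4 libraries.

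With regeneration, Slc10a2 rose in control mice (0.80, edgeR adjusted p = 0.0182) and Ggt1 in HIRA KO mice (3.19, adjusted p = 0.00256). Pkd1, which encodes the polycystin of the primary cilium, fell in both, with log2 fold changes of -0.69 (adjusted p = 0.0202) and -1.15 (adjusted p = 0.000871). Pkd2, its partner, and Slc5a1, a glucose transporter, fell in HIRA KO mice, with changes of -0.47 and -1.01 (adjusted p = 0.0214 and 0.0443). In all, 1 gene was called higher and 1 lower in control mice, and 1 higher and 3 lower in HIRA KO mice. Of all genes, 6.04% were called higher and 4.17% lower in control mice, and 6.48% and 5.53% in HIRA KO mice. These shares apply to the lists below as well.

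Of 14 Notch pathway genes, none was called between genotypes, and the medians were 0.23 before and 0.07 after, turning to -0.10 and -0.13 without the 4 libraries low on the second component. With regeneration Hes1, a Notch target, rose in control mice (1.23, edgeR adjusted p = 0.00376) and Dll4, an endothelial ligand, fell (-1.09, adjusted p = 0.0220). In HIRA KO mice the receptor gene Notch1 and the coactivator gene Maml1 fell, by 0.82 and 0.57 on the log2 scale (adjusted p = 0.00325 and 0.0142). Of 11 genes of the YAP pathway, which promotes ductal identity, none was called between genotypes (medians 0.49 and 0.15, and 0.02 and -0.10 without those 4 libraries). Its members Ajuba and Ccn2 moved in opposite directions with regeneration, Ajuba at 1.94 and 1.57 in control and HIRA KO mice (adjusted p = 0.00217 and 0.00625) and Ccn2 at -2.87 and -2.53 (adjusted p = 0.00148 and 0.00218).

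Of 6 tested fetal liver and progenitor genes, none was called between genotypes (medians 0.65 before and -0.39 after; 0.61 before with a gene that had no reads in a group at its counting bound or left out; 0.04 and -0.24 without those 4 libraries). Tnfrsf12a, the TWEAK receptor that drives progenitor growth, rose by 1.79 and 1.91 in control and HIRA KO mice (edgeR adjusted p = 0.0289 and 0.0191), and Afp, the fetal albumin homologue, by 0.94 and 0.82 (adjusted p = 0.0221 and 0.0387). Without those 4 libraries Afp changed by 0.32 in HIRA KO mice and was not called (adjusted p = 0.548). Lgr5, a Wnt target of pericentral hepatocytes, fell by 0.90 in HIRA KO mice (adjusted p = 0.0239).

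Of 9 genes for receptors of osteopontin, the product of Spp1, none was called between genotypes (medians 0.23 and -0.07, and -0.05 and -0.08 without those 4 libraries). After resection 4 were called higher in control mice, against 6.04% of all genes, and none in HIRA KO mice, against 6.48%. The 3 largest of these were Cd44 at 1.20 (edgeR adjusted p = 0.0212), Itga4 at 1.08 (adjusted p = 0.00458) and Itga5 at 0.94 (adjusted p = 0.00541). In HIRA KO mice Cd44 stood at 0.94 (adjusted p = 0.0574), and without HIRA KO before 1 it was called, at 1.37 (adjusted p = 0.00294). None of the 9 had a called difference between the genotypes' changes, so the change in control mice is not shown to differ from that in HIRA KO mice. Of the 28 calls named for genes of the pathway lists, all kept their direction and 15 kept an edgeR adjusted p under 0.05 without each of the 8 compared libraries in turn, and 21 did so without the 4 libraries low on the second component. The calls of Slc10a2 before and Ggt1 after between genotypes, and of Slc5a1 and Afp in HIRA KO mice and Tnfrsf12a in control mice with regeneration, were kept in only 2 or 3 of those 8 fits. Without the 4 libraries low on the second component, the calls of Slc10a2 and Ggt1 between genotypes were lost (edgeR adjusted p = 0.240 and 0.200). So were those of Ggt1, Pkd2, Maml1, Afp and Tnfrsf12a in HIRA KO mice with regeneration (edgeR adjusted p = 0.0520, 0.0508, 0.151, 0.548 and 0.134).

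Markers of other cells in the tissue moved beside these results. The summed level of 10 hepatocyte genes was 105659 to 119423 CPM in control before, 121391 to 162205 in HIRA KO before, 107733 to 156017 in control after and 114160 to 143223 in HIRA KO after, and Alb, Apoa1 and Ttr were its most abundant genes. Most of the sum was Alb, at 135396 of 162205 CPM in HIRA KO before 1. In that library Hnf4a, Apoa1, Asgr1 and Slc10a1, singled out after their values were seen, were each below 14 of the other 15 libraries, with Slc10a1, a bile acid transporter of hepatocytes, at 45.1 CPM against a mean of 452 in the rest of its group. Other genes of the list went the other way: Alb, Ttr and Pck1 were highest in that library, and Cps1 was at 1.48 times the mean of the rest of its group. Cebpa and Cyp2e1 were at 0.72 and 0.47 times that mean. The list's median log2 fold change between HIRA KO and control before was -0.14. The 10 stellate cell and matrix genes, led by Dcn, Col3a1 and Col1a2, summed to 207 to 230 CPM in control before and to 654, 445, 234 and 243 in HIRA KO before 1 to 4. The 6 mesothelial genes summed to 17.0 CPM in HIRA KO before 1 and to 1.51 to 13.0 in the other 15 libraries. The 4 proliferation genes, led by Mki67, Top2a and Cdk1, rose in both genotypes after resection, from 2.78 to 7.33 CPM in control before to 29.9 to 222 in control after. All 4 were called higher in each, against 6.04% of all genes in control and 6.48% in HIRA KO mice.

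**Figure D4:**
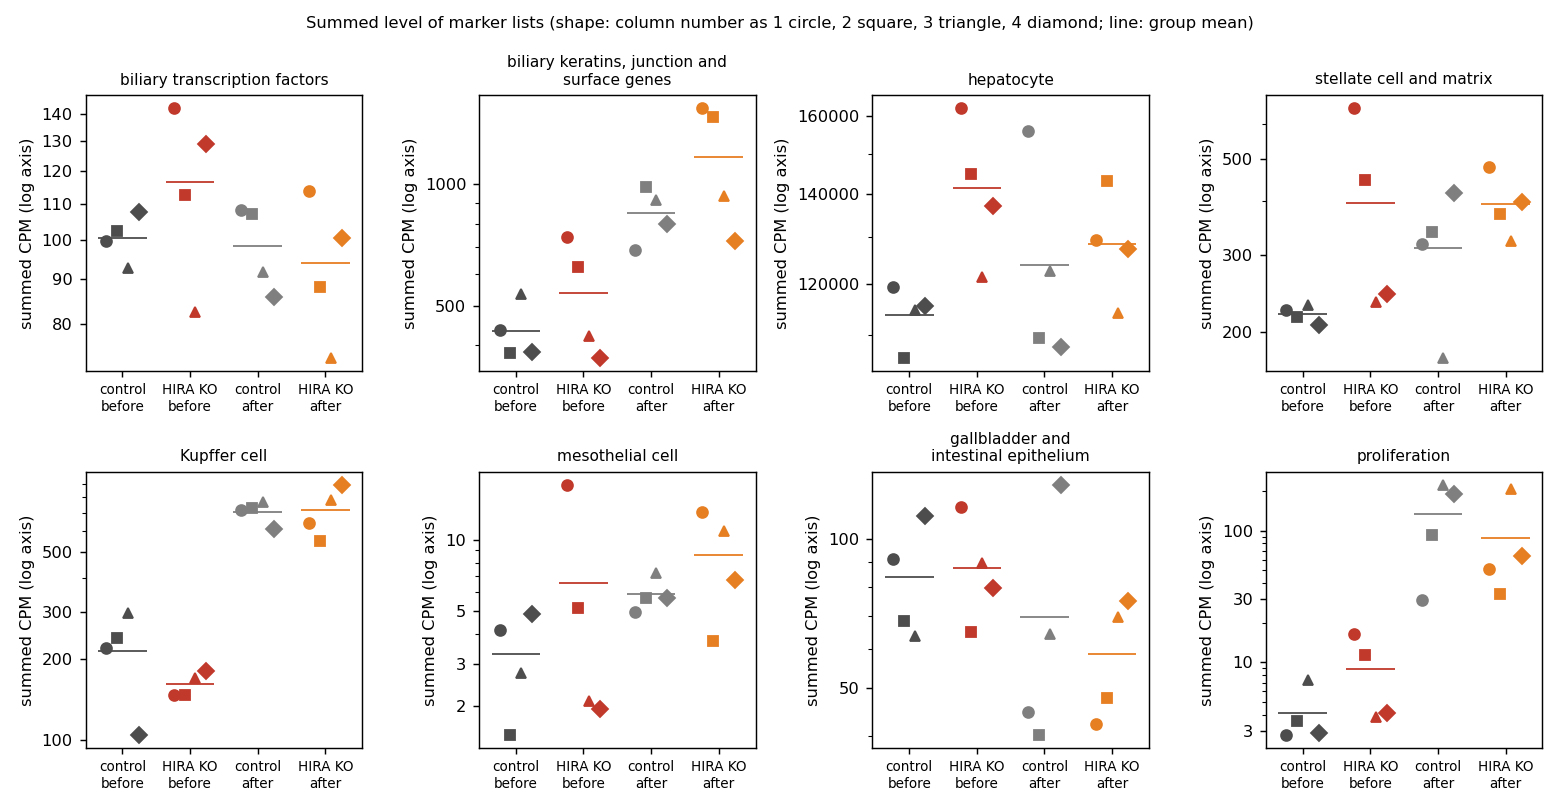
Summed CPM of 8 gene lists in each library (log axes, 1 per panel), by group, with the group mean as a line. HIRA KO before 1 (red circle) is highest for the stellate and mesothelial lists at 654 and 17.0 CPM and for hepatocyte genes, mostly Alb, at 162205 CPM, while the Kupffer cell and proliferation lists are higher in all 8 libraries from after than in all 8 from before.

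The genes whose levels most resembled each member were found by Pearson correlation of log2(CPM + 1) over the 16 libraries among 13176 genes with a mean of at least 1 CPM; the libraries share the 4 groups and the same gene counts, and genes are not independent, so these are descriptions. For Spp1 they were E2f2 (r = 0.91), Gca (0.90) and Xpnpep1 (0.89), and leaving out HIRA KO before 1 hardly moved them. For Sox9 they were Map3k1 (0.94), Abcc1 (0.92) and Tff3 (0.89), and for Prom1 Slpi (0.91), Cd63 (0.91) and Arhgdia (0.89). The genes nearest to Krt19 were Tspan8 (0.97), Cyp2s1 (0.96) and Fcgbp (0.96), but without HIRA KO before 1 their r was 0.83, 0.60 and 0.60.

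Krt7 was most like Ltf (0.96), Ehf (0.96) and Trim46 (0.95), and Epcam most like Spint1 (0.98), Itga8 (0.93) and Plcd3 (0.93), with r of 0.93 for Epcam and Spint1 without HIRA KO before 1. Cftr, with a mean under 1 CPM, was not searched. Among the members, Krt19 had an r of 0.92 with Krt7 and 0.89 with Epcam over 16 libraries, and 0.56 and 0.66 over the 15 without HIRA KO before 1. Krt7 and Spp1 went the other way, from 0.33 over 16 libraries to 0.86 over 15.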

How the data were processed

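The authors sequenced poly(A) RNA from whole liver with a directional kit. By the study's methods, reads were trimmed, aligned with STAR and counted with HOMER; the submitters' processing notes list STAR, HTSeq, Cufflinks and mm10, with no role. Whether counting used strand is not given in the sources used here. The deposited counts are whole reads per gene, not normalized. The deposited FPKM values, per length and depth, came from a tool that is not given in the sources used here. They do not follow the counts exactly (from 4613 to 5667 genes per library had FPKM but 0 reads), 2 of them are implausibly large, and they were used for levels between genes and 1 alternative test.

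Genes with under 10 counts in total were left out, as in the study, leaving 23018. CPM is reads per 1000000 reads in these genes after TMM scaling. Each comparison was a contrast of edgeR 4.0.16 (R 4.3.3; glmQLFit, glmQLFTest) over 16 libraries and 4 group means; SEs were derived from its F statistic. DESeq2 1.42.0, limma 3.58.1 on log2(FPKM + 1) and on log2(FPKM + 0.1), other scalings and filters and leaving out each library were alternatives. The 7 members and the 17 gene lists were chosen with earlier results of these data known. From pathway lists, genes called between genotypes were named, and at most 3 per direction for regeneration; from cell type lists, the 3 with the highest mean. By the study's legend each group of 4 held 2 mice per approach, so the libraries of a group are taken as separate mice. No column is tied to a named mouse or approach, and p-values measure the spread between these libraries. No 2 libraries were alike within sampling noise. Genes under 1 CPM rest on about 20 reads or fewer. Values of 2 genes of these lists are not reported here. The scripts were tested on simulated data.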

Additional observations from a re-analysis of the deposited data

Results flagged for a closer look

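Within groups of 4, a library was held to stand apart where its gap to the nearest other, divided by the group's range, passed Dixon's 95% critical value for 4 samples. Of 28 groups (7 members in 4 groups) 6 did. The members share the same libraries and some vary together, so this count is a description and not a test against chance. HIRA KO before 1 accounted for 4 of the 6: Krt19 at 52.7 CPM, with the next at 4.40, Krt7 at 8.20 with the next at 1.33, Epcam at 11.6 with the next at 4.00, and Prom1 at 16.9 with the next at 2.07. The other 2 were low values by small margins: Krt19 in control before 2 at 1.18 CPM, with the next at 1.95, and Epcam in control after 2 at 1.49 CPM, with the next at 1.74.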

How the results depend on the processing

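Over the 5 comparisons, the number of members called was the same under most alternatives. Between HIRA KO and control before, edgeR called 0 and DESeq2 called 1 (Krt19). From before to after in control mice, edgeR called 1 (Spp1), and 0 when only the compared groups entered the fit (adjusted p = 0.0539) or with limma on log2(FPKM + 1) (adjusted p = 0.0570); leaving out 1 library at a time gave 0 to 1. From before to after in HIRA KO mice, edgeR called 0, DESeq2 called 1 (Krt19) and edgeR with library size alone called 1 (Spp1, adjusted p = 0.0486). No member's call changed direction. The causes were not tested.

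No paired analysis was possible because the columns carry no mouse and no replicate number from the labels. For the same reason no fit with the Cre or CRISPR approach as a term was run. Over all genes, DESeq2 called 375 genes where edgeR called 9 (HIRA KO against control before), 910 against 113 (after) and 67 against 0 (the difference between them). The fit without the 4 libraries low on the second component was added after seeing the data. It leaves out HIRA KO libraries and no control, so it is not a separate test of a difference between genotypes. Depth limits Cftr, and Krt7 in most libraries.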
